A study of Mus musculus with 5 samples.

Results

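The genes described here are 9 mucins chosen by symbol, the membrane mucins Muc1, Muc4, Muc13, Muc16 and Muc20 and the gel-forming mucins Muc2, Muc5ac, Muc5b and Muc6. Each was read from a probe set that the platform annotation ties to that gene symbol alone, with the highest mean where a gene has several, and each of the 9 had 1 such probe set. They are 9 of 19938 genes measured the same way.

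Mucins are heavily O-glycosylated proteins of epithelial surfaces. Membrane mucins span the apical membrane of duct and gland cells and are cleaved near the membrane, while gel-forming mucins are stored in granules and secreted as the polymers of mucus. In the normal pancreas duct cells carry mainly membrane mucin, and duct-derived lesions are known for gastric-type secreted mucins.

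The signals come from Affymetrix whole-transcript arrays of cultured mouse pancreatic cells, given as log2 signal per probe set, so a difference of 1 is a 2-fold change of signal. The PDAC group held 3 primary cultures of pancreatic ductal adenocarcinoma cells with the genotype written Pdx-1Cre APCL/+ p53L/L. Its comparison was with 2 cultures of normal pancreatic duct cells (normal ductal), with the genotype written Pdx-1Cre p53L/L. As written, both groups share the p53L/L alleles and a Cre driven by the promoter of Pdx-1, a gene of the pancreatic lineage. They differ by APCL/+ and also by being tumour or normal cells, so allele and tumour state cannot be told apart. The growth protocol in the labels speaks of low-passage PDAC cells for every sample, normal ductal ones included. The title of normal ductal replicate 2 leaves out both Cre and the word ductal, and the title of PDAC replicate 3 adds that the cells are mutant. The labels give no animal, sex or age and call the samples biological replicates. The p-values set a group difference against the spread of these 5 cultures within their groups, moderated with a variance taken from all genes. In bulk RNA a smaller share of cells that express a gene and less RNA per cell cannot be told apart.

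Array medians over all genes lay between 6.46 and 6.62, and 8 of the 9 mucin genes had signals under that median on every array, Muc1 being the exception. No detection call was used here, so whether such a gene is expressed at all cannot be read from its signal. The deposited values repeat between arrays: 47.8% of all genes had the same value on at least 2 arrays, 74.3% among genes with a mean under the median gene and 21.2% among the others. Of the mucin genes 5 showed such a repeat, and Muc2, Muc6 and Muc13 had 1 value on all 3 PDAC arrays.

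Muc16 and Muc1 are the mucin genes whose signal spans more than 2 log2 units over the 5 cultures, and Muc4 has the smallest p among the others, so the 250 bases before their annotated starts are shown (RefSeq, GRCm38.p6, 5′ to 3′ on the strand of the gene). Muc16 lies on the minus strand, window chr9:18674604-18674853. Its start used here lies inside the annotated gene interval, which covers 218 bases of this window. Muc1 lies on the plus strand, window chr3:89228806-89229055, and Muc4 on the plus strand, window chr16:32735636-32735885. Capitals mark matches to any of 6 motifs searched on both strands: TATAAA (the TATA box), GGGCGG (the GC box), CACCTG (an E-box), TGACTCA (the AP-1 site), TTCNNNGAA (the STAT site) and CCAAT.
Muc16: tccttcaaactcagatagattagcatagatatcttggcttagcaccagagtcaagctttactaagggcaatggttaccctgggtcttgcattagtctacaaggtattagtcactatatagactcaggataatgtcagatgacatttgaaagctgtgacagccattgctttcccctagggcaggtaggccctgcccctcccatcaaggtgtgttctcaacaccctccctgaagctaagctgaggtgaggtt
Muc1: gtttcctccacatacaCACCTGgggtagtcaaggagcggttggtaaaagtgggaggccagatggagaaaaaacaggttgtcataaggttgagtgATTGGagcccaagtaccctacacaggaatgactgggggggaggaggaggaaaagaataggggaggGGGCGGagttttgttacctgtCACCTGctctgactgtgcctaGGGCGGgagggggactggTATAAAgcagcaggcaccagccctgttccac
Muc4: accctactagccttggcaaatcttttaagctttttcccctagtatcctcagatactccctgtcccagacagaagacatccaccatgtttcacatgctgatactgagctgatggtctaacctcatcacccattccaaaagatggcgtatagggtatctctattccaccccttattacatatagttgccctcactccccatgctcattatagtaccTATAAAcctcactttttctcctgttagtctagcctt

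The Muc1 window held a TATA box that begins 31 bases before the start, GC boxes at 49 and 91 bases, E-boxes at 70 and 234 bases and, on the other strand, a CCAAT box at 156 bases. The Muc4 window held a TATA box at 36 bases and no other of these motifs. The Muc16 window held none of the 6, and the annotated gene interval reaches 218 bases into it. Among 32851 windows of the same length, 12.4% held the TATA box, 32.7% the GC box, 17.2% this E-box, 4.46% the AP-1 site, 7.02% the STAT site and 33.8% the CCAAT box. The G and C share was 46.4% for Muc16, 54.8% for Muc1 and 43.6% for Muc4, against a median of 52.4% over all windows. These matches describe letters and say nothing about binding.

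**Figure D1:**
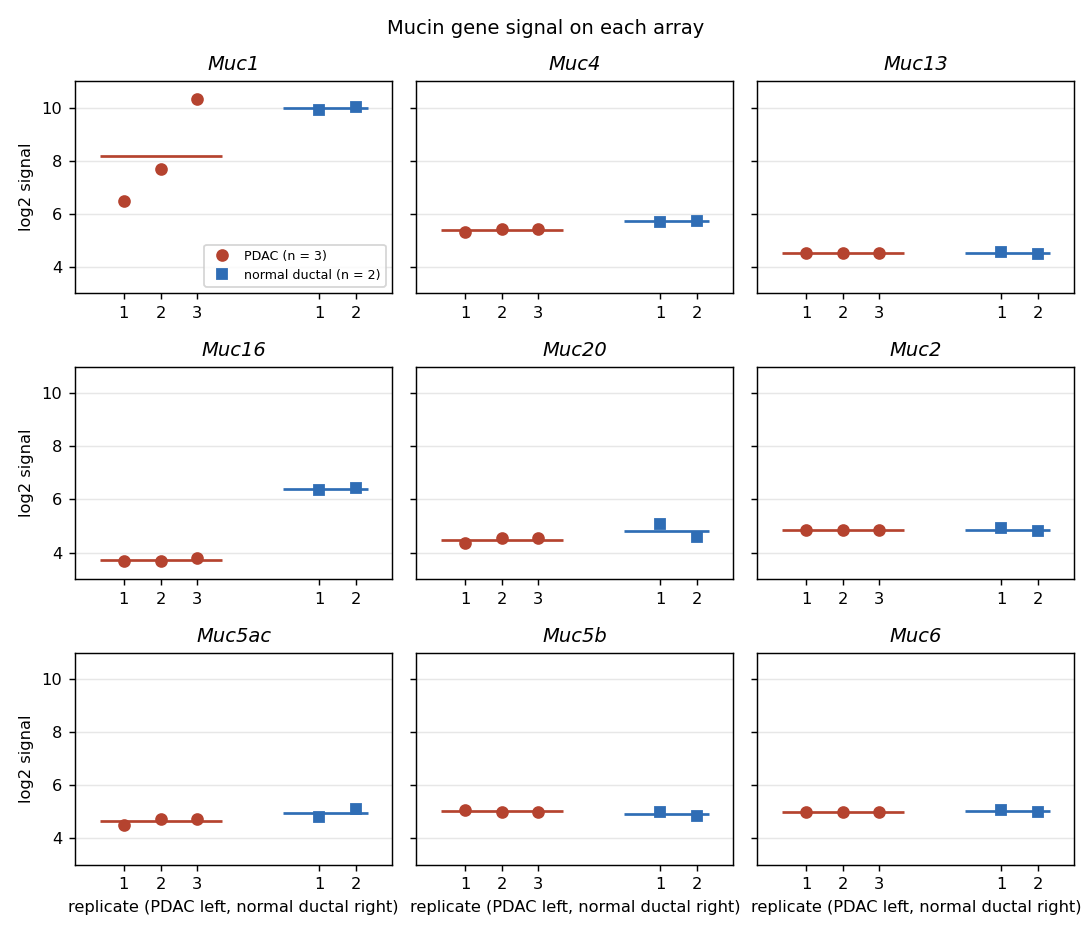
Log2 signal of each mucin gene on each array, with the 3 PDAC cultures (circles) left of the 2 normal ductal cultures (squares) and a line at each group mean. Muc16 sits near 3.7 in all 3 PDAC cultures and near 6.4 in both normal ductal cultures, Muc1 runs from 6.48 to 10.32 among the PDAC cultures, and the other 7 genes stay between 4.37 and 5.74.

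Muc16, the very long membrane mucin whose shed part is the CA125 antigen, fell in PDAC. Its signal was 3.68, 3.69 and 3.79 in PDAC replicates 1, 2 and 3, against 6.36 and 6.41 in normal ductal replicates 1 and 2. The PDAC cultures thus lay within 0.11 of each other, the normal ductal cultures within 0.05, and a gap of 2.57 separated the groups. The group means were 3.72 ± 0.06 (SD, n = 3) in PDAC and 6.39 ± 0.04 (SD, n = 2) in normal ductal cultures. The log2 fold change was -2.67 (SE 0.05, 95% interval -2.80 to -2.53), a 6.35-fold lower signal, with an adjusted p = 0.0170 in limma's moderated test with Benjamini-Hochberg adjustment over all genes. With genes whose values repeat inside a group left out, the SE of Muc16 was 0.13 and limma's adjusted p was 0.00588.

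Among all 19938 genes Muc16 had the smallest p, rank 1. A further 133 genes, 0.667% of those tested, were lower in PDAC by more, with a median SE of 0.598, and the pooled SD within groups was 0.05 for Muc16, against a median of 0.17 over all genes. In GRCm38.p6 the gene spans bases 18495445 to 18674821 of chromosome 9. The probe set rests on 1 accession in the annotation.

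The fold of Muc16 hardly moved with the cultures used, from -2.70 to -2.64 with any 1 of them left out, but its call did. Without PDAC replicate 1, 2 or 3 limma's adjusted p was 0.262, 0.347 and 0.0674, in fits that called 0 genes (unadjusted p under 0.05: 955, 934 and 1416 genes up, 994, 1061 and 1335 down). Without normal ductal replicate 1 or 2 the log2 fold change was -2.69 and -2.64. Those fits leave 1 normal ductal culture, which is assumed to vary like the PDAC cultures. Muc16 would also be lost to a filter on dim genes: its mean over the 5 arrays was 4.79, under the 4.90 that bounds the dimmest 25% of genes.

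Muc16 was the only mucin gene that passed the test adjusted over all genes, 1 of 9 lower and 0 of 9 higher. Over all genes the same rule called 0.0502% lower and 0.00502% higher. At an unadjusted p under 0.05, 2 of the 9 were lower (Muc16 and Muc4) and 0 higher, beside 6.86% lower and 6.5% higher of all genes. Muc4 did not keep this level when genes whose values repeat inside a group were left out. In 4 of the 9 every PDAC culture lay under both normal ductal cultures (Muc4, Muc5ac, Muc16 and Muc20), and in 0 every one lay above, beside 12.8% and 13.6% of all genes. The median log2 fold change was -0.29 over the 9 mucin genes and 0.01 over all genes.

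Muc1, the membrane mucin of duct and gland cells that is cleaved within its SEA domain and whose tail signals inside the cell, differed between the PDAC cultures. Its signal was 6.48, 7.67 and 10.32 in PDAC replicates 1, 2 and 3, against 9.89 and 10.04 in normal ductal replicates 1 and 2. PDAC replicates 1 and 2 were low, by 3.41 and 2.23 relative to the lower normal ductal culture, while replicate 3 lay 0.28 above the higher one. The groups therefore overlapped. Between PDAC replicates 3 and 1 the signal differed 14.3-fold, within a group that shares 1 genotype label.

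The mean of Muc1 was 8.16 ± 1.96 (SD, n = 3) in PDAC and 9.97 ± 0.10 (SD, n = 2) in normal ductal cultures. The log2 fold change of -1.81 (SE 1.29, 95% interval -5.41 to 1.80) did not pass limma's test (adjusted p = 0.556). Without PDAC replicate 3 it was -2.89 (SE 0.51), still above the threshold with an adjusted p = 0.239, and without PDAC replicate 1 it was -0.97 (adjusted p = 0.717). Muc1 lies on chromosome 3 at bases 89229056 to 89233381. Its nearest measured neighbours, Mir92b on one side and the tripartite motif gene Trim46 on the other, had log2 fold changes of 0.02 and 0.06 and spanned little over the arrays, Trim46 from 7.01 to 7.04 in PDAC, against 7.12 and 6.80 in normal ductal cultures.

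**Figure D2:**
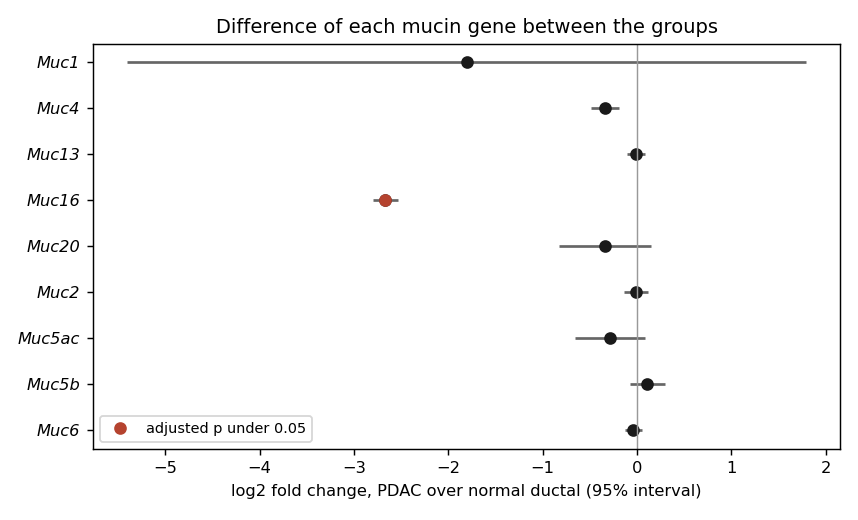
Log2 fold change of each mucin gene, PDAC over normal ductal, as points with 95% intervals from limma; the red point marks the gene with an adjusted p under 0.05. Muc16 stands at -2.67 with a narrow interval, Muc1 at -1.81 with an interval from -5.41 to 1.80, and the other genes lie between -0.34 and 0.11.

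Of the other membrane mucins, Muc4, which carries EGF-like domains and in the rat binds ErbB2, had 5.30, 5.40 and 5.43 in PDAC replicates 1, 2 and 3, against 5.69 and 5.74 in normal ductal replicates 1 and 2. The groups did not overlap, though only 0.26 lay between them. The log2 fold change of -0.34 (SE 0.05, 95% interval -0.48 to -0.19) had an unadjusted p = 0.00348 and ranked 385 of all genes, but did not pass limma's test over all genes (adjusted p = 0.180). Over the 15 alternatives in which it was tested the adjusted p ran from 0.134 to 0.440. With genes whose values repeat inside a group left out, the SE of Muc4 was 0.14 and limma's unadjusted p was 0.0605.

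Muc20, a mucin best known in kidney and described in human cells as a partner of the receptor MET, had 4.37, 4.55 and 4.54 in PDAC, against 5.07 and 4.58 in normal ductal cultures. The groups did not overlap, by 0.03, and normal ductal replicate 1 alone stood apart. The log2 fold change was -0.34 (SE 0.17, adjusted p = 0.545). It was -0.09 without normal ductal replicate 1 and -0.58 without replicate 2. Muc4 and Muc20 lie side by side on chromosome 16, from 32735886 to 32782391 and from 32777419 to 32797435, and their annotated spans share 4973 bases. Whether the probe sets separate them was not tested.

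Muc13, a membrane mucin of the intestinal brush border, had 4.50 in all 3 PDAC cultures, against 4.56 and 4.47 in normal ductal cultures. Its log2 fold change was -0.01, with a 95% interval from -0.11 to 0.09. As the PDAC values repeat, its width rests on the 2 normal ductal cultures and on the variance limma borrows from all genes. The gene lies at bases 33794037 to 33819929 of chromosome 16. Next to it Itgb5, an integrin chain, had 11.43, 11.22 and 11.10 in PDAC, against 10.11 and 10.18 in normal ductal cultures (log2 fold change 1.11, SE 0.12, adjusted p = 0.148).

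The 4 gel-forming mucins stand in a row on chromosome 7, Muc6 (141633459 to 141655393), Muc2 (141690340 to 141754691), Muc5ac (141788958 to 141819227) and Muc5b (141839059 to 141873089), within 239631 bases. None of them passed the test, and all stayed under the array medians. Muc5ac, the mucin of the gastric surface and of pancreatic precursor lesions, had 4.49, 4.74 and 4.74 in PDAC, against 4.80 and 5.09 in normal ductal cultures. The PDAC values lay under the normal ductal values by 0.06. The log2 fold change was -0.29 (SE 0.13, 95% interval -0.66 to 0.09, adjusted p = 0.498).

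Muc6, the mucin of gastric glands, had 4.98 on all 3 PDAC arrays, against 5.05 and 4.98 in normal ductal cultures, with a 95% interval of the difference from -0.13 to 0.06. Muc2, the intestinal goblet cell mucin, had 4.85 on all 3 PDAC arrays, against 4.92 and 4.80 in normal ductal cultures, and an interval from -0.14 to 0.11. As in Muc13, no spread of their own between PDAC cultures enters the intervals of Muc6 and Muc2. Muc5b, the mucin of airways and of bile and salivary ducts, had 5.08, 4.98 and 4.98 in PDAC, against 4.98 and 4.83 in normal ductal cultures. It was the 1 mucin gene with a positive log2 fold change, 0.11 (SE 0.07, 95% interval -0.08 to 0.29, adjusted p = 0.550).

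At the edges of the row, brighter genes were measured. Ap2a2, a clathrin adaptor subunit next to Muc6, had a log2 fold change of -0.22 (SE 0.13), and Tollip, an inhibitor of Toll-like receptor signals next to Muc5b, -0.78 (SE 0.17, adjusted p = 0.235). Over all mucin genes 10 such neighbours were measured. Of these 1 was lower and 1 higher at an unadjusted p under 0.05 (Tollip and Itgb5), beside 6.86% lower and 6.5% higher of all genes. The adjusted test passed 0 of them. The neighbours of Muc16, Mbd3l1 and the olfactory receptor gene Olfr24, were between 3.61 and 4.11 on every array, with log2 fold changes of -0.03 and 0.21.

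To see which genes ran alongside, every gene was centred on its own mean and compared with Muc1 and with Muc16, the mucin genes that span 2 or more log2 units, by the root mean square difference over the 5 arrays. Closest to Muc16 were Fam174b (0.09), the tyrosine kinase Tnk1 (0.17), Grhl2, a transcription factor of epithelial identity (0.18), the tight junction protein Marveld3 (0.22) and the cytokine Il24 (0.23), against a median of 1.32 over all other genes. Fam174b had 6.05, 5.83 and 5.96 in PDAC, against 8.61 and 8.53 in normal ductal cultures. Grhl2 had 5.09, 5.21 and 5.58 in PDAC, against 7.96 and 7.68 in normal ductal cultures.

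Closest to Muc1 were Elf3, an ETS transcription factor of epithelia (0.37), Igfbp3, a binding protein of insulin-like growth factors (0.37), the peroxiredoxin-like gene Prxl2a (0.37), the adaptor Sh2d4a (0.40) and Cystm1 (0.41), against a median of 1.54 over all other genes. Elf3 had 5.24, 6.00 and 8.15 in PDAC, against 8.75 and 8.62 in normal ductal cultures. Igfbp3 had 7.21, 7.39 and 10.43 in PDAC, against 10.05 and 9.76 in normal ductal cultures. Since the genes were picked for their likeness over these same 5 arrays, their patterns are a description and have no p.

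**Figure D3:**
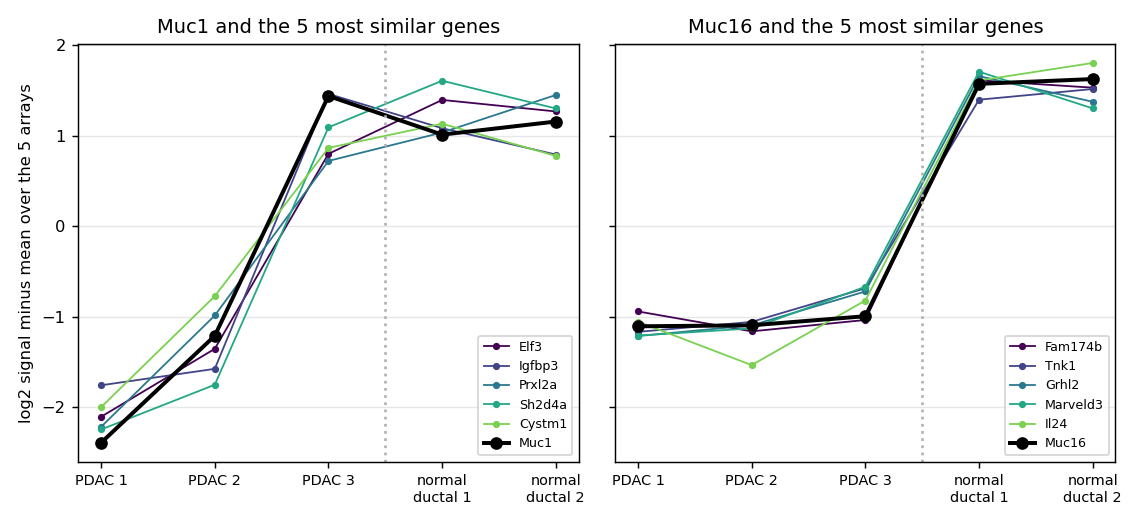
Log2 signal minus the gene's own mean over the 5 arrays, for Muc1 (left) and Muc16 (right) in black and the 5 genes with the smallest root mean square difference from each in colour; PDAC arrays are left of the dotted line and normal ductal arrays right of it, and lines only join the points of a gene. The coloured genes were picked for this likeness, and the lines show how closely each follows Muc1 or Muc16.

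Markers of cell types were read on the same arrays, leaving out the mucin genes themselves. The 10 duct epithelium markers had a mean of 6.81, 7.83 and 9.51 in PDAC replicates 1, 2 and 3, against 11.39 and 10.96 in normal ductal cultures, which places the PDAC cultures in the same order as Muc1. Cdh1 (E-cadherin) had 6.41, 8.33 and 10.76 in PDAC, against 12.32 and 11.96 in normal ductal cultures, and the keratin Krt19 had 6.47, 9.51 and 11.74, against 11.46 and 11.37. Cldn4 and Cldn7, claudins of tight junctions, were low in all 3 PDAC cultures, Cldn7 at 6.32, 6.70 and 7.36, against 11.14 and 10.81 in normal ductal cultures. In 8 of the 10 every PDAC culture lay under both normal ductal cultures, beside 12.8% of all genes. Krt19 and Sox9 overlapped. Sox9 had 9.41, 10.39 and 10.39 in PDAC, against 10.93 and 10.20 in normal ductal cultures. The part of these markers in the values of Muc1 and Muc16 was not tested.

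Muc16 is also a marker of mesothelium, the lining of the abdominal cavity. The 10 others had a mean of 5.36, 5.67 and 7.74 in PDAC, against 6.11 and 6.46 in normal ductal cultures. In 4 of these 10 PDAC replicate 3 had the highest signal of the 5 arrays, and in 2 normal ductal replicate 2 had it. How many of all genes are highest on these arrays was not counted. In 0 of the 10 did every PDAC culture lie under both normal ductal cultures, as they did in Muc16, beside 12.8% of all genes. For 10 genes a count of 0 is near that share. The markers differed among themselves. Upk3b had 5.55, 5.72 and 10.41 in PDAC, against 5.72 in both normal ductal cultures. Upk1b had 4.63, 4.87 and 10.77 in PDAC, against 6.02 and 7.58 in normal ductal cultures. Lrrn4 had 5.35, 5.52 and 5.93 in PDAC, against 5.67 and 6.98 in normal ductal cultures. In the last 2 genes, as in Muc16, both normal ductal cultures lay above PDAC replicates 1 and 2, but PDAC replicate 3 lay above normal ductal replicate 1. Msln, mesothelin, which binds MUC16 in human cells, had 5.66, 8.75 and 11.18 in PDAC, against 11.25 and 10.90 in normal ductal cultures. It was high in PDAC replicate 3 and in both normal ductal cultures, while Muc16 was low in PDAC replicate 3. The part of mesothelial cells in these values was not tested.

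Gastric mucous cell markers other than Muc5ac and Muc6 (8 genes) had a mean of 5.34, 5.92 and 6.98 in PDAC, against 5.59 and 6.29 in normal ductal cultures. In 4 of the 8 PDAC replicate 3 had the highest signal of the 5 arrays, and the share of all genes highest there was not counted. Among the 4 was Cldn18, a claudin of stomach and lung, with 5.25, 6.16 and 10.70 in PDAC, against 5.94 and 7.97 in normal ductal cultures. Psca had 4.55, 5.52 and 7.65 in PDAC, against 5.88 and 8.88 in normal ductal cultures, and was highest in normal ductal replicate 2. The water channel Aqp5 had 7.15, 7.96 and 7.68 in PDAC, against 6.45 and 6.69 in normal ductal cultures, and was the 1 gene of this list with an unadjusted p under 0.05 (log2 fold change 1.03, limma adjusted p = 0.296). Goblet cell markers other than Muc2 (8 genes) had means of 4.86, 4.87 and 4.87 in PDAC, against 4.96 and 4.78 in normal ductal cultures. Their defining members were dim on all arrays, among them Zg16 at 4.30 to 4.38 and Atoh1 at 4.58 to 4.95. The levels of Spdef, the transcription factor of mucous cells, lay between 6.12 and 6.23.

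The 12 fibroblast markers had a mean of 9.24, 9.12 and 8.91 in PDAC, against 7.29 and 10.02 in normal ductal cultures. The 7 acinar markers had 5.57, 5.64 and 5.61, against 5.41 and 7.23. In normal ductal replicate 2, whose title does not say ductal, the acinar enzyme genes Ctrb1 and Cpa1 were at 12.26 and 10.12, against 6.08 and 5.54 in normal ductal replicate 1. The means of the islet, endothelium and leukocyte lists were between 5.10 and 5.40 in PDAC, against 5.76 to 5.97 in normal ductal replicate 1 and 6.18 to 7.31 in replicate 2. Normal ductal replicate 2 thus had the highest mean in each of these lists. Among single markers it was highest in 3 of 12 for fibroblasts, 4 of 7 for acinar cells and 9 of 9 for islets. For endothelium it was highest in 8 of 10 and for leukocytes in 5 of 9. The share of all genes highest on that array was not counted. Muc16 and Muc1 differed by 0.05 and 0.14 between the normal ductal cultures. The log2 fold change of Muc16 was -2.64 without normal ductal replicate 2. The part of these cell types in the values of Muc16 and Muc1 was not tested.

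**Figure D4:**
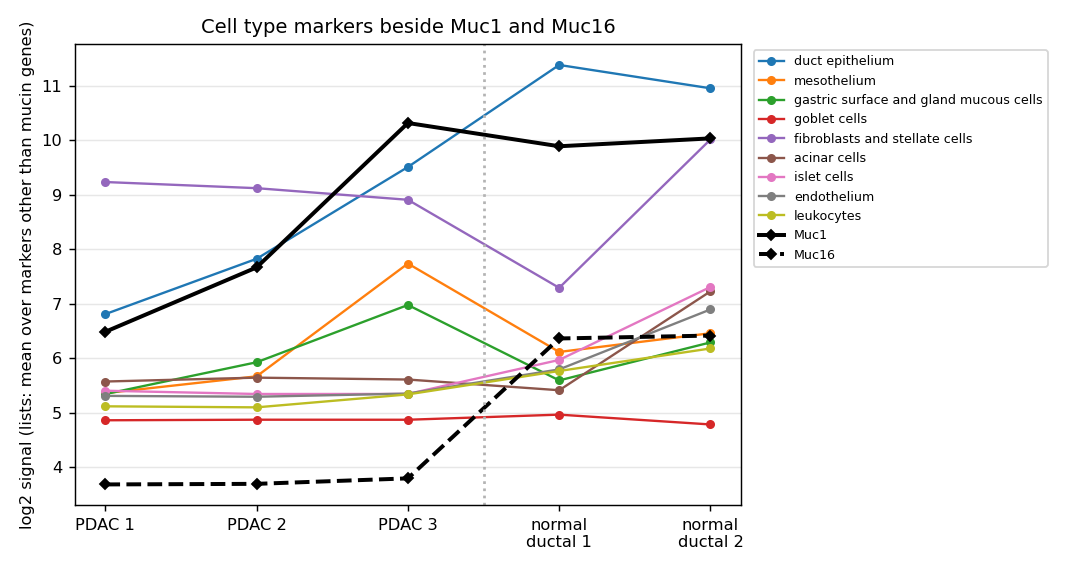
Mean log2 signal of 9 cell type marker lists, mucin genes left out, on each array (coloured lines), with Muc1 (solid black) and Muc16 (dashed black); PDAC arrays are left of the dotted line and normal ductal arrays right of it, and lines only join the points of a list. Duct markers and Muc1 are both lowest on PDAC 1 and highest among the PDAC arrays on PDAC 3, the mesothelium list is highest on PDAC 3, and Muc16 is low on all PDAC arrays.

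The enzymes and partners of mucins were read from 6 lists, 116 genes in all. Limma with adjustment over all genes called 0 of them, and at an unadjusted p under 0.05 15.5% were lower and 4.31% higher, beside 6.86% and 6.5% of all genes. Named first in each list are up to 4 genes in each direction with the smallest p under 0.05.

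Of 14 other mucin and mucin-type genes (median log2 fold change -0.19), 2 were lower and 0 higher at an unadjusted p under 0.05. Emcn, the sialomucin of endothelium, averaged 3.82 ± 0.26 (SD, n = 3) in PDAC and 7.54 ± 1.87 (SD, n = 2) in normal ductal cultures (-3.72, SE 0.88, adjusted p = 0.253). It is an endothelial marker as well, and its values in normal ductal replicates 1 and 2 were 6.21 and 8.86, in the order of that list. Tmem123, a mucin-type surface receptor, had -0.39 (SE 0.09). Of the remaining genes, Muc3, Muc15 and Muc19 were picked after their values were seen: Muc3 was between 3.91 and 4.18, Muc15 between 3.30 and 3.91 and Muc19 between 4.47 and 4.96.

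The 18 GalNAc-transferases, which add the first sugar of O-glycans, had a median log2 fold change of -0.07, with 2 lower and 2 higher at an unadjusted p under 0.05. Galnt3 had 5.83, 7.43 and 8.17 in PDAC, against 10.39 and 9.80 in normal ductal cultures (-2.95, SE 0.81, adjusted p = 0.295). Its PDAC cultures came in the same order as those of Muc1, but replicate 3 stayed below both normal ductal cultures. Galnt1 had -0.30 (SE 0.07), Galnt2 0.64 (SE 0.20) and Galnt4 0.58 (SE 0.21).

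Of 25 enzymes that extend and cap O-glycans (median 0.12), 5 were lower and 3 higher at an unadjusted p under 0.05. Gcnt3, the branching enzyme of mucous tissues, had 4.55, 5.97 and 5.21 in PDAC, against 7.36 and 7.93 in normal ductal cultures (-2.40, SE 0.50, adjusted p = 0.223). Its paralog Gcnt4 had the opposite sign, with 9.58, 9.30 and 7.99 in PDAC, against 5.29 and 6.80 in normal ductal cultures (2.91, SE 0.75, adjusted p = 0.280). In both the groups did not overlap. The sulfotransferase Chst4 had -1.33 (SE 0.15, adjusted p = 0.148), the fucosyltransferase Fut2 -0.88 (SE 0.29) and B4galnt2 -1.40 (SE 0.49). The sialyltransferases St6galnac6 and St3gal3 had 1.15 (SE 0.20, adjusted p = 0.194) and 0.83 (SE 0.19).

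In the list of folding, packaging and secretion (21 genes, median -0.08), 3 were lower and 0 higher at an unadjusted p under 0.05. Unc13b, a priming factor, had 5.10, 5.66 and 6.64 in PDAC, against 8.43 and 8.05 in normal ductal cultures (-2.44, SE 0.53, adjusted p = 0.231). Unc13d had -0.86 (SE 0.24) and the syntaxin-binding gene Stxbp2 -1.34 (SE 0.44). The disulfide isomerase Agr2, which folds gel-forming mucins, was named after its values were seen: it lay between 3.53 and 3.88 on all arrays.

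Among 19 partners and sheddases of membrane mucins (median -0.41), 4 were lower and 0 higher at an unadjusted p under 0.05. The membrane protease St14 had 6.08, 6.13 and 7.37 in PDAC, against 11.73 and 11.04 in normal ductal cultures (-4.86, SE 0.53, adjusted p = 0.148). The receptor Erbb3 had 5.77, 5.85 and 6.96 in PDAC, against 9.87 and 9.07 in normal ductal cultures (-3.27, SE 0.51, adjusted p = 0.177). Egfr had -2.11 (SE 0.51) and the kinase Src -0.41 (SE 0.09). Both sheddases Adam17 (0.41, SE 0.21) and Adam10 (-0.08, SE 0.11), named after their values were seen, had differences with an unadjusted p above 0.05.

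Of 19 transcription factors of mucin genes and mucous cells (median -0.12), 2 were lower and 0 higher at an unadjusted p under 0.05. Ehf, an ETS factor of epithelia, averaged 5.94 ± 0.82 (SD, n = 3) in PDAC and 9.40 ± 0.57 (SD, n = 2) in normal ductal cultures (-3.46, SE 0.60, adjusted p = 0.196). The forkhead factor Foxa3 had 4.74, 4.56 and 5.06 in PDAC, against 6.14 and 6.20 in normal ductal cultures (-1.39, SE 0.17, adjusted p = 0.157). Both were low in all 3 PDAC cultures, as Muc16 was. Elf3, the gene nearest to Muc1 in profile, is in this list too, outside the rule of the smallest p (-2.22, SE 0.99, adjusted p = 0.476).

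**Figure D5:**
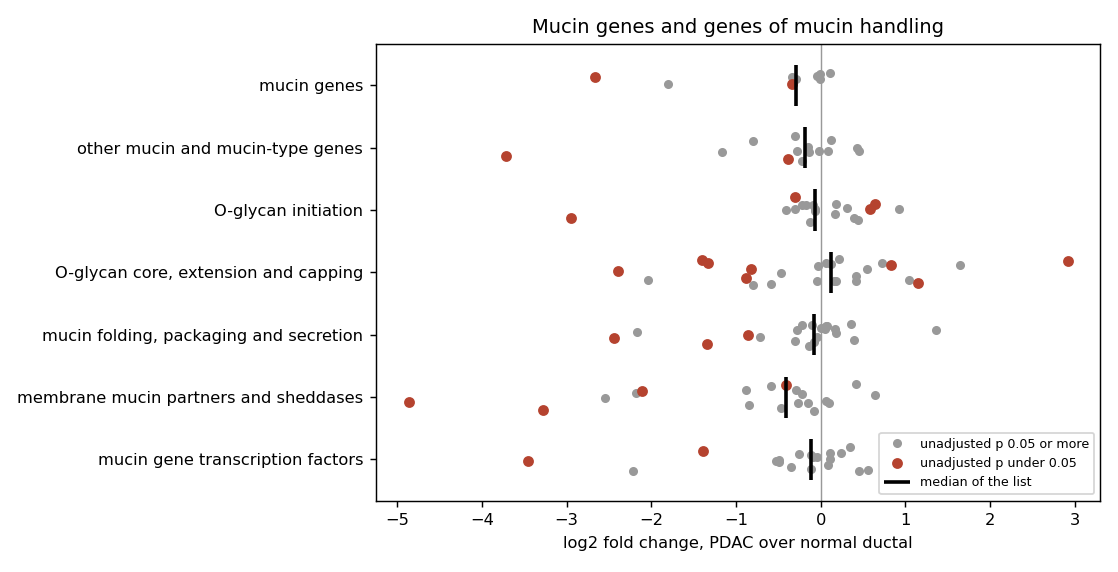
Log2 fold change, PDAC over normal ductal, of the 9 mucin genes and of each measured gene of the 6 lists of mucin handling (1 point a gene, red for an unadjusted p under 0.05, black bar for the list median). List medians lie between -0.41 and 0.12, with St14 at -4.86 and Gcnt4 at 2.91 farthest out.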

How the data were processed

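The authors deposited log2 signals, 35556 probe sets on 5 arrays, read as log2 from values between 0.727 and 13.9. RNA was amplified, labelled with biotin and hybridised, per the labels' protocols, with Transcriptome Analysis Console 1.0.0.234 and mm10 named, per the submitters' processing notes. How background, normalization and probe summary were handled is not given in the sources used here, so the values were used as deposited.

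Of the probe sets, 21789 had 1 gene symbol, 1621 several and 12146 none in the annotation table used here. Keeping the probe set with the highest mean left 19938 genes, placed through Entrez identifiers in the GRCm38.p6 list. All genes were fitted together with limma 3.58.1 in R 4.3.3 (lmFit, eBayes with an intensity trend, two-sided, 3 residual and 0.91 prior degrees of freedom, Benjamini-Hochberg over all genes, threshold 0.05; limma offsets the zero variances of genes with 1 value on all arrays). SDs, fold changes and intervals are on the log2 scale. Tables came from pandas 2.3.3 and numpy 2.4.6 under Python 3.11.15, and plots from matplotlib 3.10.9.

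The mucin genes, lists and tests were chosen with earlier results of these data known. Named were all mucin genes, up to 4 genes a list and direction with the smallest p under 0.05, and the 5 genes most like each mucin gene that spans 2 log2 units; other genes given by name were chosen after their values were seen. On simulated data (19938 genes, 200 changed in each of 10 runs) limma recovered 34.6%, 65.4% and 85.3% at log2 changes of 1, 2 and 4, with 5.51% false calls. There the changed genes were drawn at random, with the spread each gene had within groups (median pooled SD 0.17). In the real data the 379 genes with a log2 difference of 2 or more had a median SE of 0.649, and Muc1 had a pooled SD of 1.60. The recovered shares therefore do not say how often a difference such as that of Muc1 would be called here. Each result was recomputed with a common array median, quantile normalization, filters on dim genes, other variance models, array weights, the mean of probe sets, the replicate number as a block, each culture left out, a threshold of 0.1 and, added after seeing the data, leaving out genes whose values repeat inside a group. Each mucin gene has 1 probe set, so testing all probe sets gave the same folds.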

Additional observations from a re-analysis of the deposited data

How the results depend on the processing

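Muc16 was lower in all 14 alternatives in which it was tested, by log2 fold changes from -2.70 to -2.57, with an adjusted p from 0.00399 to 0.440, under 0.05 in 9. Mucin genes called lower numbered 0, in place of 1, without the dimmest 25% or 50% of genes (Muc16 is then not tested), with no moderation of variances (adjusted p = 0.144) and with the replicate block (0.440), and 0 to 1 with any 1 culture left out; at an unadjusted p under 0.05 limma gave 1, 0, 2 and 4. The replicate numbers are not said to pair cultures, only 2 are shared, and no correlation of deviations was used; the block gave 0 higher and 0 lower genes (1104 and 1110 at an unadjusted p under 0.05). Over all genes, higher and lower calls (1 and 10 as reported) were 10 and 32 after quantile normalization, 23 and 57 with a common array median, 3 and 10 or 15 and 27 without the dimmest 25% or 50%, 1 and 0 with no moderation (916 and 998 at an unadjusted p under 0.05), 0 and 3 with array weights (1079 higher at an unadjusted p under 0.05), 6 and 19 at a threshold of 0.1, and 36 and 131 when genes with repeated values in a group were left out; with 1 culture left out they ran from 0 to 980 and from 0 to 865. Without normal ductal replicate 1 (980 and 307) or 2 (125 and 865) the lone culture left is assumed to vary like the PDAC cultures. Of the genes of mucin handling, St14 alone was called with a common array median or without the dimmest 50% (1 lower each), 4 were called without equal-valued genes (Chst4, Erbb3, Foxa3 and St14), and with 1 culture left out 0 to 9 were higher and 0 to 5 lower, the highest counts without normal ductal replicate 1 (9 higher) and 2 (5 lower).

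Directions turned in the genes with the smallest differences. Under quantile normalization and a common array median Muc2 was 0.0311 and 0.0813, Muc6 0.00221 and 0.0550, and Muc13 0.0276 and 0.0847, none past the threshold; with 1 culture left out Muc2 ran from -0.0726 to 0.0483 and Muc13 from -0.0542 to 0.0366. These scalings move the middle of all genes too, to a median difference of 0.04 (quantile) and 0.10 (common median), from 0.01 in the deposited values. Of the recomputed differences of mucin genes, 112 kept their direction and their side of the threshold, 1 was exactly 0 (Muc6 without normal ductal replicate 1), 8 turned and 5, all of Muc16, lost the call. Without probe-level background data, a limit on how dim a signal can be read is not known.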
